A study of Mus musculus with 23 samples.

Results

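The neutrophil granule genes followed here are 10 genes given by name, Mpo, Elane, Prtn3, Ctsg, Lyz2, Ltf, Ngp, Camp, S100a8 and S100a9, and each was read from its probe with the highest mean over 23 arrays. All 10 had a probe, among 20145 genes with one. Of the 10, 7 were tested, among 15202 genes tested in all, since they had 1 or more arrays with a log2 intensity of 6.5 or above, whereas Ngp, S100a8 and S100a9 stayed under this limit.

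Neutrophil granules are loaded in waves as granulocytes mature. Primary (azurophil) granules are filled first, in promyelocytes, with myeloperoxidase and the serine proteases, and secondary (specific) granules follow in myelocytes with lactoferrin and cathelicidin. Their mRNAs are made in the granulocytic branch, and some of them are not confined to it. C/EBP factors, PU.1, MYB and RUNX1 are known to act on the promoters and enhancers of these genes.

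The arrays asked how RUNX1-ETO, the fusion protein of t(8;21) leukaemia, altered gene expression at 4 stages of blood formation in culture. All cells came from 1 mouse ES cell line, A2lox, with an HA-tagged human RUNX1-ETO under a tetracycline-responsive promoter on a background with both Runx1 copies intact, and the strain is labelled C57BL/6. Haemogenic endothelium (HE, KIT+Tie2+CD41-), HE2 (cells that had gained CD41 and kept Tie2) and progenitors (CD41+KIT+Tie2-) were sorted on day 2 of blast culture, with no doxycycline (Dox) or with Dox at 0.1 µg per ml from day 1. The fourth stage, myeloid progenitors, came from progenitors grown in cytokine medium for myeloid expansion, with or without Dox at 0.1 µg per ml for 12 h. There were 3 uninduced and 3 induced arrays of HE, of HE2 and of myeloid progenitors, and 2 of each for progenitors. An additional uninduced progenitor array, labelled both a technical replicate and replicate 3, was normalized with the rest and kept out of the tests, and induced myeloid progenitor array 3, which carries both kinds of label, was used as replicate 3. All arrays analysed here came from cells with the transgene, so that Dox itself and RUNX1-ETO cannot be told apart. The labels call the arrays biological replicates without saying that cultures were separate, so that P values measure the spread between these arrays, which may be partly technical. A change was called where the unadjusted P value of limma was at most 0.001 and the change at least 2-fold, and the P values printed are adjusted over all genes tested.

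Per array, 48.8 to 78.4% of spots were well above background, none of the members' spots was saturated, and precision is limited by how many arrays there were. The probe for Runx1t1, the mouse gene for ETO, was brighter with Dox at every stage, with log2 differences of 1.24 (HE), 2.08 (HE2), 3.96 (progenitors) and 2.06 (myeloid progenitors), of which that in HE was not called. HE and HE2 arrays and 3 progenitor arrays lay on slides 1 and 2. Induced progenitor array 2, the additional array and all myeloid progenitor arrays lay on slide 3, which was scanned on another day.

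The promoters of 5 members are shown because these genes either changed or, for Elane, lie beside one that did. Each runs from 250 bases before to 50 bases after the start of the gene on the gene's own strand, taken from RefSeq on GRCm38.p6, in which all 10 members had an entry. Capitals mark matches on either strand to TGTGGT (RUNX), GAGGAA (PU.1-type ETS) and TTNCNNAA (C/EBP), and no match shared a base with another.
Mpo: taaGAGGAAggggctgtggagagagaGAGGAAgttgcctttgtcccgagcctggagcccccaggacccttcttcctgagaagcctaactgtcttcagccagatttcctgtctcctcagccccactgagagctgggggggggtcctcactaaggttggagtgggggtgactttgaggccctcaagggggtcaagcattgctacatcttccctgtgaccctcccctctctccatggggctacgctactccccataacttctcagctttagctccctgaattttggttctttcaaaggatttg
Prtn3: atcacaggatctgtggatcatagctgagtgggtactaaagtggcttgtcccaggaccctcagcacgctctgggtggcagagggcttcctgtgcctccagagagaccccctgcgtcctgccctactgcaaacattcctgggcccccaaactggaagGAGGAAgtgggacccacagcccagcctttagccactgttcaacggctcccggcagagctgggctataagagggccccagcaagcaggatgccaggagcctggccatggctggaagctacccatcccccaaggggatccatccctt
Elane: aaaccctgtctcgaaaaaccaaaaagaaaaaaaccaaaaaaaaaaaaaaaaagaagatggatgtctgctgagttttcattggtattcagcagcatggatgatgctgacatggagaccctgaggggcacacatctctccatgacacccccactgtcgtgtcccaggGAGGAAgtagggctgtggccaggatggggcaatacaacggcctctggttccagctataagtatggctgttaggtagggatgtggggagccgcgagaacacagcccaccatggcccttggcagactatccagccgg
Lyz2: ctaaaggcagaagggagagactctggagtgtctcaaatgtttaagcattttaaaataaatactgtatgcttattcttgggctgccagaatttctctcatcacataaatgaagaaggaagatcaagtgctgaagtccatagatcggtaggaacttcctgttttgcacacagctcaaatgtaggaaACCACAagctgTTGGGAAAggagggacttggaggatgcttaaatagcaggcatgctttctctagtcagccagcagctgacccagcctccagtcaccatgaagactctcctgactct
Ltf: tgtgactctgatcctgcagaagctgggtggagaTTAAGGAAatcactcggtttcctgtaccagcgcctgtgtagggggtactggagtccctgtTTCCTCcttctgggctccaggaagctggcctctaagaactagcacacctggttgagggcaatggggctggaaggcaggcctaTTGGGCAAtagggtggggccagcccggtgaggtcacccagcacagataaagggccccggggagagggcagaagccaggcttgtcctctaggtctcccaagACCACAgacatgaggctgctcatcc

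These windows lie at chr11:87793534-87793833 (plus strand) for Mpo, chr10:79879417-79879716 (plus strand) for Prtn3, chr10:79886062-79886361 (plus strand) for Elane, chr10:117282223-117282522 (minus strand) for Lyz2 and chr9:111019042-111019341 (plus strand) for Ltf. The Mpo window held GAGGAA at -247 and at -224 from the start, and the Prtn3 and Elane windows each held it once, at -95 and at -85. The Lyz2 window held the RUNX letters at -66 and a C/EBP match at -55, and the Ltf window held C/EBP matches at -217 and -75, the ETS letters at -157 and the RUNX letters at 26, past the start. Over the 10 members, 4 held TGTGGT, against 16.8% of all 32851 promoters in the table, 6 held GAGGAA, against 28.3%, and 5 held TTNCNNAA, against 40.7%. A match describes letters and is not a binding site, and a window without one says nothing on the factor. In gene order, Prtn3 lies directly between Plppr3 and Elane, and S100a8 lies next to S100a9.

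Without Dox, 4 of the 10 genes, each read from its brightest probe, passed at 1 or more steps between stages. Mpo, which encodes myeloperoxidase, Lyz2, which encodes lysozyme, and Ltf, which encodes lactoferrin, rose from HE to HE2. Mpo rose again from HE2 to progenitors, where Prtn3, the gene of proteinase 3, also rose. Both Mpo and Prtn3 were lower in myeloid progenitors than in progenitors.

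Mpo had log2 intensities of 10.33, 9.92 and 9.24 on the 3 uninduced HE arrays, 12.82, 13.02 and 13.68 on the HE2 arrays, 14.79 and 15.15 on the progenitor arrays and 13.85, 12.70 and 12.78 on the myeloid progenitor arrays. The additional progenitor array had 15.26. No array of one stage overlapped with those of the next in this series, so that Mpo was lowest in HE and highest in progenitors on every uninduced array. The log2 rise from HE to HE2 was 3.34 (standard error (SE) 0.364, n = 3 and 3, adjusted P = 1e-05 from limma), a 10.2-fold change. The rise from HE2 to progenitors was 1.80 (SE 0.406, n = 3 and 2, adjusted P = 0.00747 from limma), and the change from progenitors to myeloid progenitors was -1.86 (SE 0.406, n = 2 and 3, adjusted P = 0.002 from limma). The call from HE2 to progenitors was near the limit and ended without HE2 array 1 or 2 or progenitor array 1 or 2, at 1.62 to 1.98.

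Prtn3 was near the dim end of the array in uninduced HE, with 5.23 and 5.37 on the 2 arrays that could be used, since its spot on array 2 was marked as an outlier and left out. It reached 6.15, 6.09 and 7.37 in HE2, 8.51 and 9.17 in progenitors, and 7.38, 7.15 and 7.11 in myeloid progenitors. Progenitor arrays were thus above every array of the other stages, and HE2 array 3 stood above the other two. The rise from HE2 to progenitors was 2.30 (SE 0.360, adjusted P = 0.000364 from limma), and the change from progenitors to myeloid progenitors was -1.63 (SE 0.360, adjusted P = 0.00247). From HE to HE2 the difference of 1.24 (SE 0.360, adjusted P = 0.0357 from limma) missed the limit on P, although the groups did not overlap, and with the slide as a block it was 1.33 and passed (adjusted P = 0.007).

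Lyz2 had 5.74, 5.26 and 5.63 in uninduced HE, where 2 of 3 spots were well above background, then 8.27, 6.53 and 8.77 in HE2, 8.93 and 8.11 in progenitors and 9.76, 10.03 and 9.37 in myeloid progenitors. HE2 arrays spread widely, with array 2 the lowest. The rise from HE to HE2 was 2.32 (SE 0.467, adjusted P = 0.00328 from limma), and no later step passed. Without HE2 array 3 the call ended (1.86, adjusted P = 0.0294). Lyz2 was the only tested member with its highest mean in myeloid progenitors, where the step from progenitors was 1.20 (SE 0.523, adjusted P = 0.0861 from limma). That step crosses slides, and with the slide as a block it was 0.35 (adjusted P = 0.934 from limma). Within slide 3, against the additional progenitor array at 9.56, it was 0.16.

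Ltf had 6.45, 5.22 and 5.26 in uninduced HE, with 2 of 3 spots well above background, and 7.77, 7.54 and 8.95 in HE2. It then had 7.68 and 9.31 in progenitors and 8.25, 7.84 and 7.57 in myeloid progenitors, so that these 3 stages overlapped. Its rise from HE to HE2 was 2.45 (SE 0.412, adjusted P = 8e-04 from limma).

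In all, 3 of the 7 tested members rose from uninduced HE to HE2, where 2.39% of all genes tested rose, and 2 rose from HE2 to progenitors, where 1.78% did. From uninduced progenitors to myeloid progenitors 2 fell, where 6.93% of all genes fell. The median log2 change of the 7 members was 1.24, 0.84 and -0.84 over these steps, against 0.03, -0.02 and -0.12 for all genes tested. The steps share groups and are not independent of each other. By their replicate numbers, uninduced HE and HE2 arrays deviated together from their group means, and the paired fit kept every call of that step. Other markers moved at it too, with 4 of 7 megakaryocyte and 3 of 8 erythroid markers higher and 2 of 8 endothelial markers lower in HE2, and a mean log2 intensity over the megakaryocyte list of at most 7.88 in HE and at least 9.30 in HE2. From uninduced HE2 to progenitors, 4 of 8 endothelial markers were lower, and 3 of 8 erythroid and 2 of 7 megakaryocyte markers were higher. Of 8 macrophage markers tested, 2 were higher and 1 was lower at that step. The part of these cells in the results of both steps was not tested.

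The step to myeloid progenitors also crosses slides, since the uninduced progenitor arrays of the fit were on slides 1 and 2. With the slide as a block the calls ended, at -2.12 for Mpo (adjusted P = 0.163 from limma) and -1.92 for Prtn3 (adjusted P = 0.0503). Without uninduced progenitor array 2 the change was -1.68 for Mpo (adjusted P = 0.0311) and -1.29 for Prtn3 (adjusted P = 0.0514). Both calls also ended without myeloid progenitor array 2 or array 3, and that of Mpo without progenitor array 1 (-2.04). Within slide 3, the mean of the uninduced myeloid progenitors minus the additional progenitor array was -2.15 for Mpo, -1.81 for Prtn3 and -1.71 for Ltf, with no test. For Lyz2 it was 0.16, against 1.20 in the fit. Macrophage markers were also higher in uninduced myeloid progenitors, with a mean log2 intensity over 9 genes of 9.49 to 10.38, against 7.42 to 7.47 in progenitors, erythroid markers lay at 15.57 to 15.99 against 11.87 to 12.08, and megakaryocyte markers at 12.42 to 12.76 against 9.92 to 10.45. The part of these cells in the result was not tested.

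**Figure D1:**
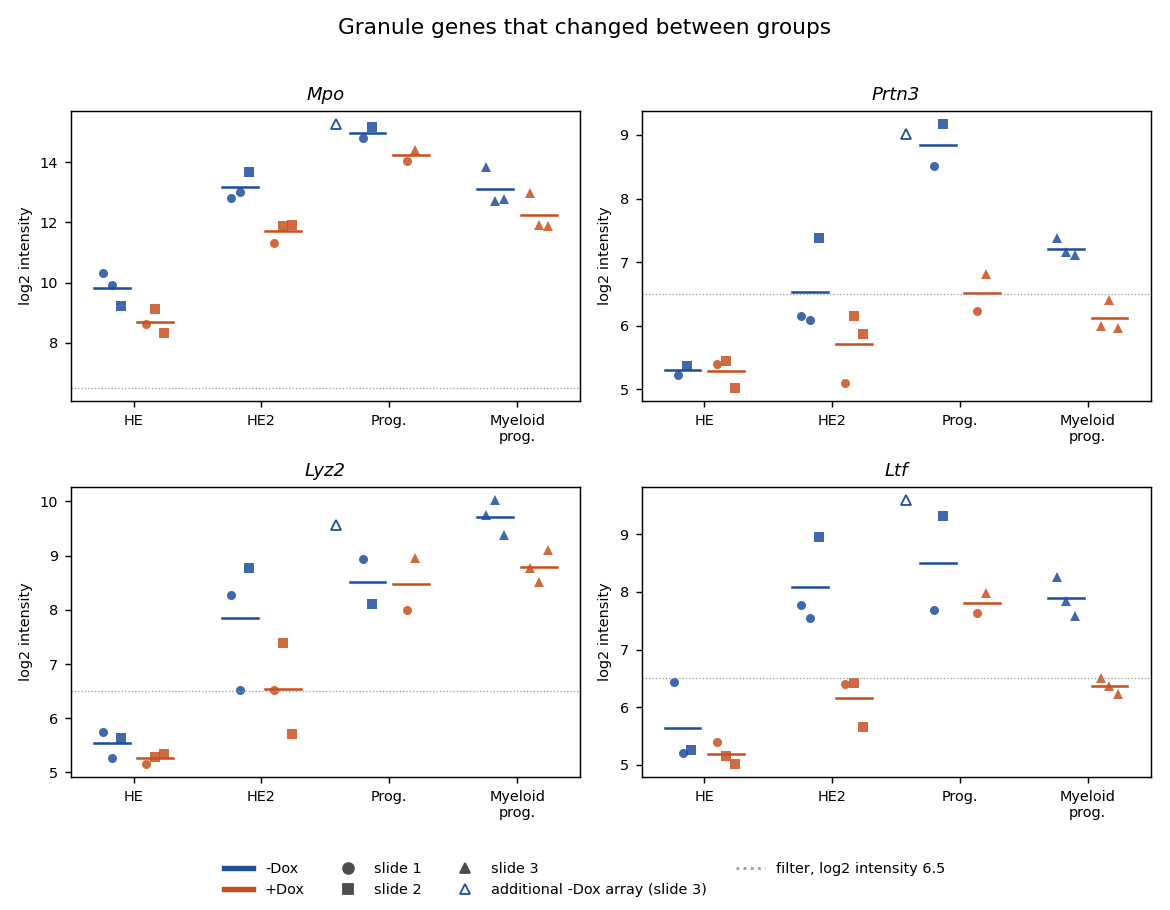
Log2 intensity of Mpo, Prtn3, Lyz2 and Ltf on each array, by stage, with uninduced arrays (-Dox) in blue and induced arrays (+Dox) in orange, group means as bars and the slide as the symbol. Mpo climbed from 9.24 to 10.33 in uninduced HE to 14.79 and 15.15 in progenitors, and the induced progenitor arrays of Prtn3, at 6.23 and 6.81, lay far under the uninduced ones at 8.51 and 9.17.

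With Dox, only Mpo passed the threshold between consecutive stages. Mpo had 8.63, 9.11 and 8.34 in induced HE, 11.30, 11.89 and 11.90 in HE2, 14.05 and 14.39 in progenitors and 12.96, 11.92 and 11.89 in myeloid progenitors. As without Dox, consecutive stages did not overlap. It rose by 3.00 from HE to HE2 (SE 0.364, adjusted P = 5.81e-05 from limma) and by 2.52 from HE2 to progenitors (SE 0.406, adjusted P = 0.00035), and changed by -1.96 from progenitors to myeloid progenitors (SE 0.406, adjusted P = 0.0025). Thus 1 of 7 members rose at the first step, against 1.62% of all genes, 1 at the second, against 2.02%, and 1 fell at the third, against 2.51%. The third call ended with the slide as a block (-2.14, adjusted P = 0.0174 from limma) and without induced progenitor array 2 (-1.79, adjusted P = 0.0233). Markers of other cells moved at these steps too. At the first, 5 of 7 megakaryocyte and 3 of 8 erythroid markers rose. At the second, 4 of 8 endothelial markers fell and 4 of 8 erythroid markers rose. At the third, 7 of 8 tested macrophage markers rose. How far these cells account for the changes of Mpo was not tested.

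Lyz2 and Ltf did not pass at any step with Dox. From induced HE2 to progenitors the log2 difference was 1.93 for Lyz2 (SE 0.523, adjusted P = 0.0175 from limma) and 1.65 for Ltf (SE 0.461, adjusted P = 0.0212). Without induced HE2 array 2, which had the highest Lyz2 value of its group, the Lyz2 difference was 2.36 and passed (adjusted P = 0.006). Prtn3 differed by 0.42 from induced HE to HE2 (adjusted P = 0.554) and by 0.81 from HE2 to progenitors (adjusted P = 0.16), and neither passed.

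**Figure D2:**
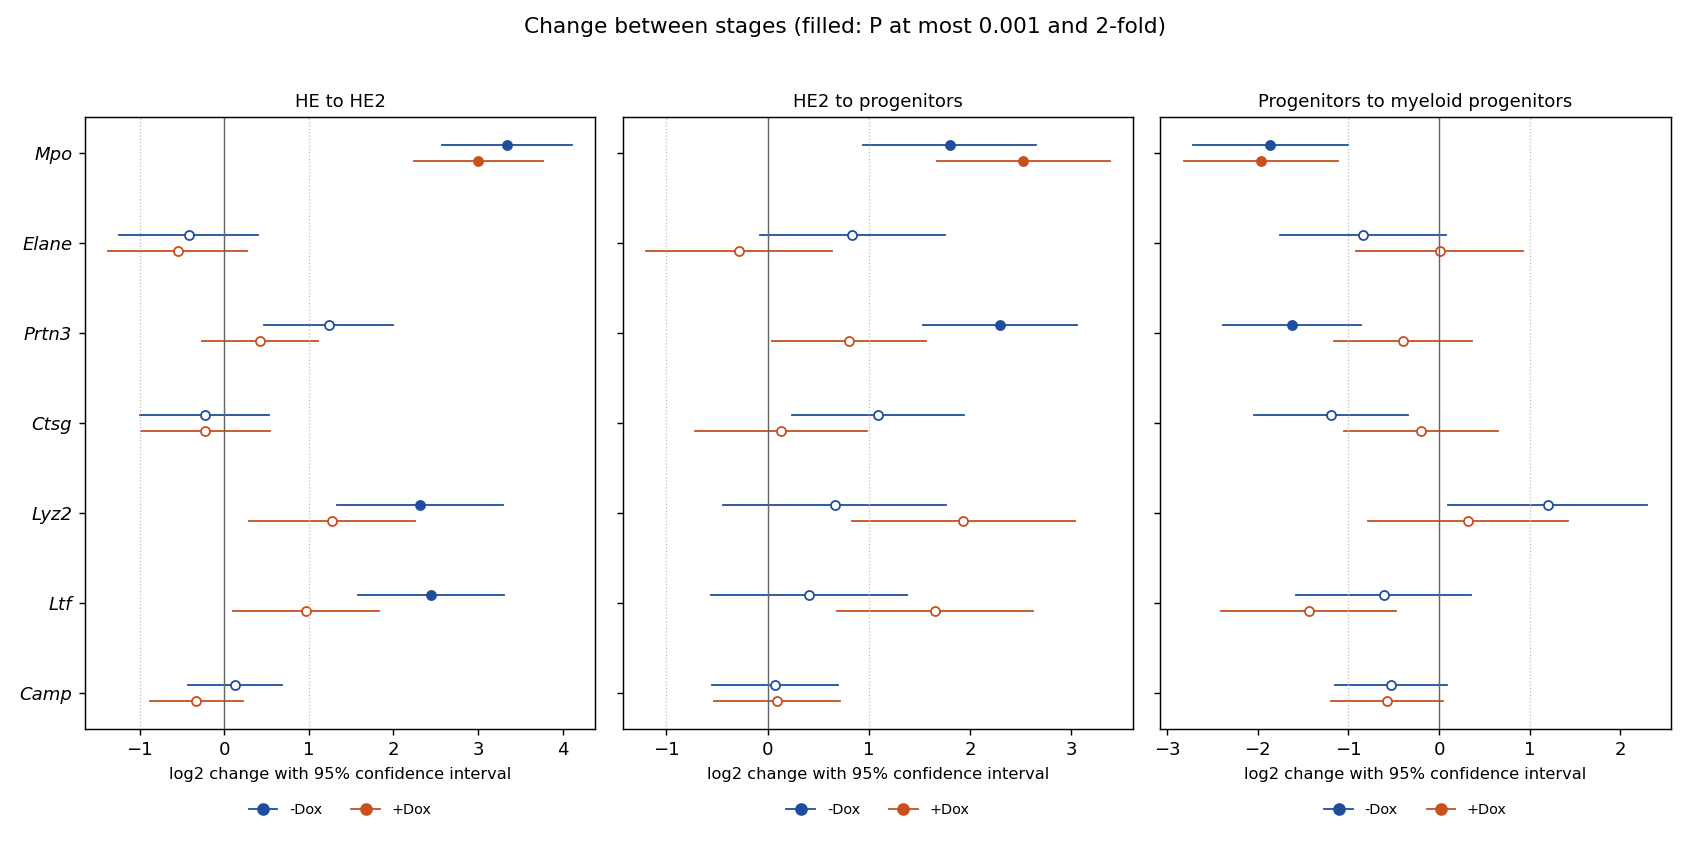
Log2 change of the 7 tested members between consecutive stages with its 95% confidence interval, uninduced cells in blue and induced cells in orange, with filled points where P was at most 0.001 and the change at least 2-fold. Mpo is filled in both colours in all 3 panels, at 3.34 and 3.00, 1.80 and 2.52, and -1.86 and -1.96, whereas Lyz2, Ltf and Prtn3 are filled in blue only.

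The second question was how these genes differed with Dox within a stage. In HE2, Mpo and Ltf fell with Dox, by 1.48 and 1.93 on the log2 scale, in progenitors Prtn3 fell by 2.32, and in HE and in myeloid progenitors no member passed. No member rose with Dox at any stage. In these bulk samples, fewer cells of a type and less RNA per cell cannot be told apart.

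The background of these counts differed between stages. In HE, 0 of the 7 tested members rose or fell, where 4.7% of all genes rose and 2.39% fell. At an unadjusted P under 0.05, 1 member was lower with Dox, where 12.4% of all genes were lower and 14.4% higher. In HE2, 0 rose and 2 fell, where 5.17% rose and 2.05% fell, and at P under 0.05 4 members were lower, where 13.2% of all genes were lower and 16.2% higher. In progenitors, 0 rose and 1 fell, where 3.03% rose and 0.704% fell, and at P under 0.05 3 members were lower, where 9.77% of all genes were lower and 10.4% higher. In myeloid progenitors, 0 rose and 0 fell, where 5.13% rose and 1.18% fell, and at P under 0.05 3 members were lower, where 10.4% of all genes were lower and 15.1% higher. From HE to myeloid progenitors, the median log2 change of the 7 members at each stage was -0.01, -0.83, -0.75 and -0.85, against -0.01, -0.03, -0.04 and -0.02 over all genes tested with limma.

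Mpo was lower in induced than in uninduced cells at all 4 stages by the group means, and the arrays overlapped in myeloid progenitors alone. The change with Dox in HE2 was -1.48 (SE 0.364, n = 3 and 3, adjusted P = 0.00848 from limma), a 2.78-fold difference. It was -1.13 in HE (SE 0.364, adjusted P = 0.041), -0.75 in progenitors (SE 0.445, adjusted P = 0.366) and -0.85 in myeloid progenitors (SE 0.364, adjusted P = 0.141), and these did not pass. The value in myeloid progenitors ran from -0.48 without uninduced array 1 to -1.21 without induced array 1. Within slide 1 the difference in HE was -1.49, and within slide 2 it was -0.51. In HE2 it was -1.62 within slide 1 and -1.78 within slide 2, with 3 arrays of either stage on each slide. The call in HE2 was close to the limit, however. It ended with the slide as a block (-1.53, adjusted P = 0.0117 from limma), with the replicate number as a block (adjusted P = 0.0115), and without uninduced array 2 or 3 or induced array 1, 2 or 3, where the change lay between -1.22 and -1.58. The call also ended with the scan date as a block (adjusted P = 0.0103) and in a fit of the compared groups only (adjusted P = 0.0211).

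Ltf had 6.40, 6.43 and 5.65 in induced HE2, under the uninduced arrays at 7.54 to 8.95. The change was -1.93 (SE 0.412, adjusted P = 0.00302 from limma), a 3.80-fold difference, and the within-slide differences were -1.25 on slide 1 and -2.91 on slide 2. The call ended without uninduced array 3 (-1.50, adjusted P = 0.0231) and without induced array 3 (-1.67, adjusted P = 0.0223). It also ended with early stages and myeloid progenitors normalized apart (-1.92, adjusted P = 0.0136). A fit of the compared groups only ended it too (adjusted P = 0.0273 from limma). In myeloid progenitors, all on slide 3, the induced arrays had 6.52, 6.37 and 6.23, again under all uninduced arrays, and the change of -1.52 (SE 0.412, adjusted P = 0.0182) missed the limit. This change passed in a fit of the compared groups only (adjusted P = 0.00163 from limma). It also passed with early stages and myeloid progenitors normalized apart (-1.55, adjusted P = 0.00177). In HE, Ltf had 5.40, 5.16 and 5.02 with Dox, a difference of -0.45 (adjusted P = 0.571) that was -0.04 without uninduced array 1, and in progenitors 7.64 and 7.98, a difference of -0.69 (SE 0.505, adjusted P = 0.48), where the groups overlapped. On slide 1 that difference was -0.04, and against the additional array on slide 3 it was -1.62.

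Prtn3 had 6.23 and 6.81 on the induced progenitor arrays. The difference to the uninduced arrays, -2.32 (SE 0.395, n = 2 and 2, adjusted P = 0.00155 from limma), was a 4.99-fold one and passed under all 20 alternatives tried, between -1.96 and -2.65. On slide 1 alone it was -2.28, and induced array 2 minus the additional uninduced array, both on slide 3, gave -2.21. Prtn3 had 5.10, 6.15 and 5.88 in induced HE2, which overlapped with the uninduced arrays, a difference of -0.83 (SE 0.322, adjusted P = 0.0933 from limma). Without uninduced array 3 it was -0.41, and without induced array 1 it was -0.52. In myeloid progenitors it had 5.99, 6.40 and 5.96 with Dox, without overlap, and the difference of -1.09 (SE 0.322, adjusted P = 0.0308) missed the limit. That difference passed with the slide as a block (adjusted P = 0.00812 from limma) and in a fit of the compared groups only (adjusted P = 0.00283). It also passed with early stages and myeloid progenitors normalized apart (adjusted P = 0.00293).

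Elane, the neutrophil elastase gene beside Prtn3, passed at no stage. Its uninduced progenitor arrays had 9.30 and 10.24, and its induced ones had 8.48 and 8.77, a difference of -1.15 (SE 0.478, adjusted P = 0.186 from limma) without overlap. Leaving out 1 array moved it between -0.68 and -1.61. In the other stages its differences with Dox were 0.11 in HE (95% confidence interval -0.71 to 0.93), -0.02 in HE2 (-0.84 to 0.80) and -0.30 in myeloid progenitors (-1.12 to 0.52). Within slides the HE difference went both ways, with -1.26 on slide 1 and 1.23 on slide 2. Over all 23 arrays Elane kept between 8.30 and 10.24, and no step between stages passed in either arm. Its means in uninduced and induced HE were 9.35 and 9.46, where Prtn3 had 5.30 and 5.29. How far the Elane probe reads Elane RNA was not tested. Ordered by their means, each group of Elane arrays overlapped with the next.

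Lyz2 had 6.52, 7.38 and 5.71 in induced HE2 and differed by -1.32 from the uninduced arrays (SE 0.467, adjusted P = 0.0612 from limma), with overlap. Without uninduced HE2 array 2, the lowest of its group, the difference was -1.98 and passed (adjusted P = 0.00285), whereas without uninduced array 3 it was -0.86 (adjusted P = 0.283). In induced HE it had 5.16, 5.29 and 5.34, with 1 of 3 spots well above background. In myeloid progenitors the induced arrays, at 8.77, 8.50 and 9.10, lay under all uninduced ones, and the difference of -0.93 (SE 0.467, adjusted P = 0.228) did not pass. In progenitors the induced arrays, at 7.99 and 8.95, overlapped with the uninduced ones (-0.05, 95% confidence interval -1.25 to 1.16). On slide 1 alone the difference was -0.94, and induced array 2 minus the additional array on slide 3 gave -0.60. Lyz1, the adjacent and closely similar lysozyme gene, rose by 3.60 from uninduced HE to HE2, and how far its RNA reaches the Lyz2 probe was not tested.

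**Figure D3:**
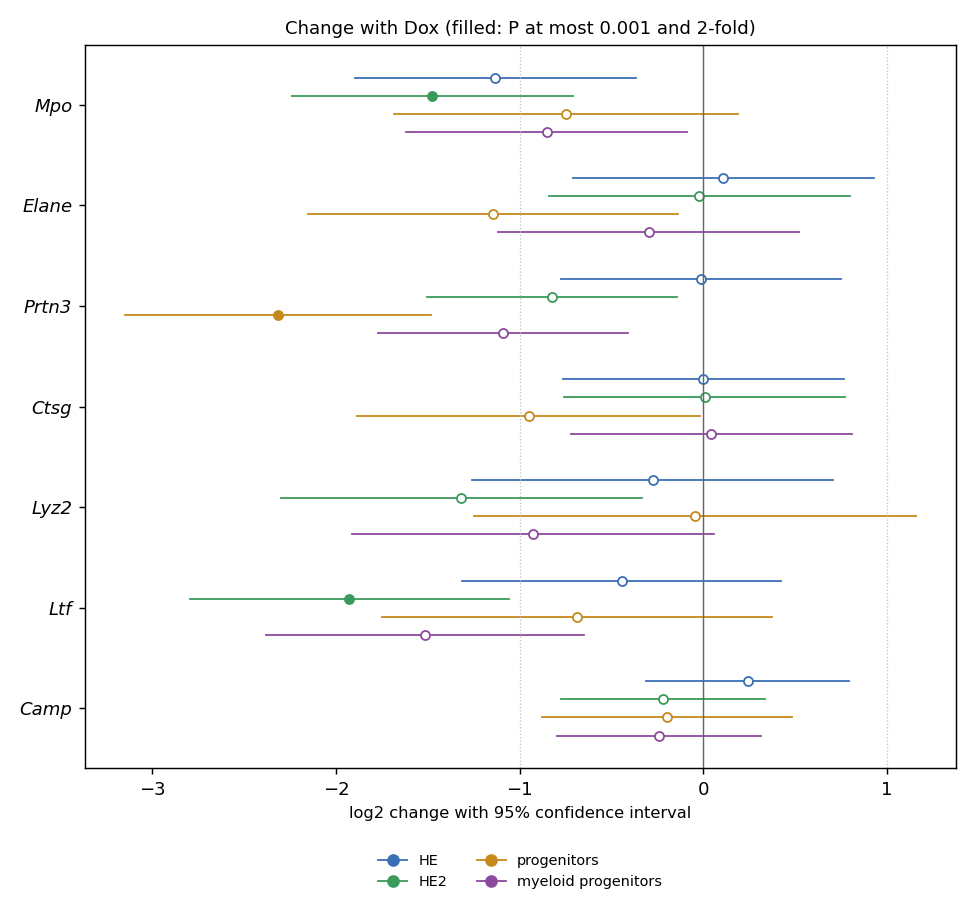
Log2 change with Dox of the 7 tested members at the 4 stages with its 95% confidence interval, with filled points where P was at most 0.001 and the change at least 2-fold. The filled points are Mpo (-1.48) and Ltf (-1.93) in HE2 and Prtn3 (-2.32) in progenitors.

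Ctsg, which encodes cathepsin G, was dim, with 5.22 to 6.93 over all arrays and 16 of 23 spots well above background. Its group mean was highest in uninduced progenitors, with 6.93 and 6.74 against 5.77 and 5.99 in induced ones, a difference of -0.95 (SE 0.444, adjusted P = 0.239 from limma). Uninduced HE array 3, at 6.79, lay between the uninduced progenitor arrays. The additional uninduced array had 6.03, close to the induced array of the same slide. With Dox it differed by 0.01 in HE2 (95% confidence interval -0.76 to 0.77) and by 0.04 in myeloid progenitors (-0.72 to 0.81), and no step between stages passed.

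Camp, the cathelicidin gene of the secondary granules, had 2 probes that disagreed. Its brighter probe stayed between 5.97 and 7.61 and passed in no comparison, and its differences with Dox from HE to myeloid progenitors were 0.24, -0.22, -0.20 and -0.24. On the second probe, uninduced progenitors had 7.47 and 8.07 and induced progenitors had 6.41 and 6.47. It rose by 1.30 from uninduced HE2 to progenitors (SE 0.307, adjusted P = 0.0105 from limma) and fell by 1.33 with Dox in progenitors (SE 0.336, adjusted P = 0.0238). The additional uninduced array had 6.99 on this probe. Over 23 arrays the correlation of both probes was 0.346, so that the level of Camp depends on the probe.

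Ngp, which encodes neutrophilic granule protein, was well above background on 1 of 23 arrays and had at most 5.52. S100a8 and S100a9, whose products form the cytosolic protein calprotectin, were well above background on 1 and 5 arrays. The highest S100a8 value was 6.35, on uninduced myeloid progenitor array 2, against 4.86 and 4.85 on the other two of that group. S100a9 reached 6.19 on uninduced myeloid progenitor array 1. These 3 genes are expressed in late granulocytic cells, though not all of them in these alone, and none could be compared between groups.

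**Figure D4:**
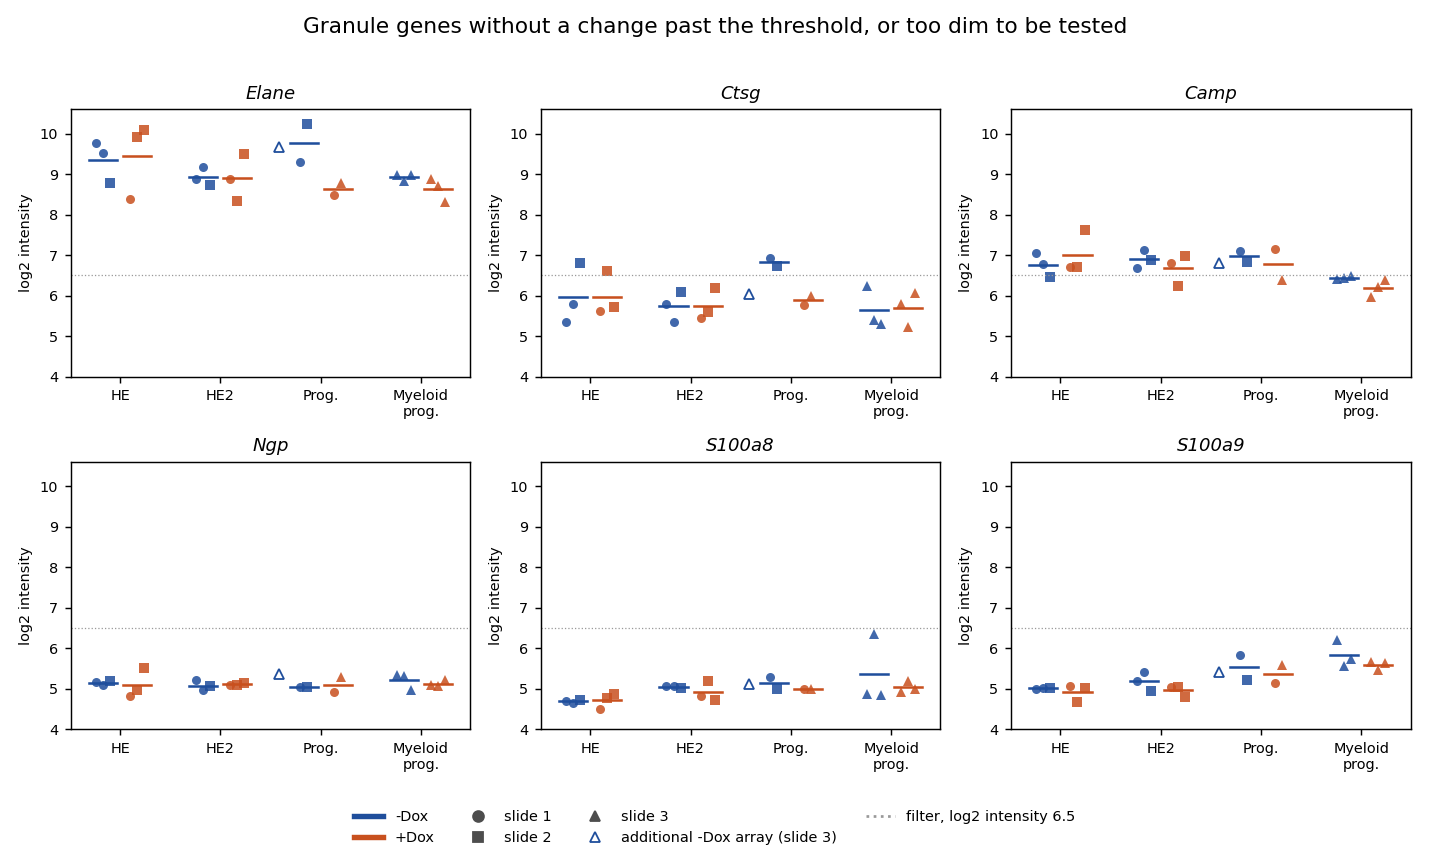
Log2 intensity of the 6 members that passed in no comparison or were too dim to be tested, on each array by stage, with the same colours, bars and symbols as for Mpo, and the filter of 6.5 as a dotted line. Elane stays between 8.30 and 10.24, and Ngp, S100a8 and S100a9 stay under the line on all 23 arrays.

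Whether the response to Dox differed between stages was tested as an interaction. It passed for 0 of the 7 members between HE and HE2, where 1.34% of all genes passed, for 0 between HE2 and progenitors, where 0.645% did, and for 0 between progenitors and myeloid progenitors, where 1.5% did. In each of these 3 tests 1 member had P under 0.05 in limma, where 8.62%, 8.1% and 12.5% of all genes had. These were Ltf between HE and HE2 (-1.48, SE 0.583, adjusted P = 0.383), Prtn3 between HE2 and progenitors (-1.49, SE 0.510, adjusted P = 0.376) and Prtn3 between progenitors and myeloid progenitors (1.23, SE 0.510, adjusted P = 0.324). Without uninduced HE2 array 3, the response of Prtn3 differed by -1.91 between HE2 and progenitors and passed by its unadjusted P (adjusted P = 0.103). The fall of Prtn3 in progenitors and of Mpo and Ltf in HE2 is therefore not shown to be particular to a stage.

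Other cell markers moved in the same comparisons. In HE2, 5 of 8 erythroid markers and 3 of 8 endothelial markers rose with Dox, and their mean log2 intensity was 11.73 to 12.18 with Dox against 9.99 to 10.67 without for the erythroid list, and 12.55 to 13.26 against 11.14 to 12.10 for the endothelial list. In progenitors, 4 erythroid and 3 endothelial markers rose, with erythroid means of 13.66 to 14.09 against 11.87 to 12.08 and endothelial means of 11.36 to 11.65 against 9.93 to 10.02. The mast cell and basophil list, with 8 genes on the array, had means of 7.14 to 7.30 with Dox and 6.25 to 6.61 without in progenitors. Of its 5 tested genes only Hdc and Cpa3 passed there. Hdc, which encodes histidine decarboxylase, rose at all 4 stages, with log2 changes of 5.31, 5.47, 4.25 and 5.43 from HE on, and Cpa3, which encodes a mast cell carboxypeptidase, rose by 1.32 in HE, 2.28 in progenitors and 3.27 in myeloid progenitors. The eosinophil list, with 8 genes, had means of 5.46 to 5.61 with Dox in HE2 and 5.98 to 6.10 without. Of its 4 tested genes only Siglecf, which encodes a surface lectin, passed, with changes of -2.27 (HE2), -1.51 (progenitors) and -2.25 (myeloid progenitors). The other 4, Epx, Prg3, Ear1 and Ear2, were too dim to be tested. The macrophage list, with 9 genes, had means of 6.81 to 6.95 with Dox in HE2 and 6.88 to 7.13 without, and in progenitors 7.16 to 7.33 and 7.42 to 7.47, while its genes went both ways. Mrc1, which encodes the mannose receptor, rose by 3.46 in HE2 and 3.11 in progenitors, whereas Csf1r, which encodes the receptor of M-CSF, changed by -1.77 in HE2 and Cx3cr1, which encodes a chemokine receptor, by -1.57 in progenitors. In myeloid progenitors 6 of 8 endothelial markers rose and 5 of 7 megakaryocyte markers fell. The part of these cells in the changes of the granule genes was not tested.

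The factors known to act on granule genes were described as a list of 7, of which 2 fell with Dox in HE2 and 2 in progenitors, and 0 fell and 1 rose in myeloid progenitors. Of all genes tested, 2.05% fell in HE2, 0.704% fell in progenitors and 5.13% rose in myeloid progenitors. Cebpe, which encodes the C/EBP factor that secondary granules need, had means of 6.95 without and 5.99 with Dox in HE2 and of 9.13 and 7.37 in progenitors, where it fell by 1.75 (SE 0.252, adjusted P = 0.000295 from limma). In HE2 its change of -0.97 (adjusted P = 0.00297) was short of 2-fold. Cebpb, the gene of another C/EBP factor, fell by 1.88 in HE2 (adjusted P = 0.00485). Spi1, the gene of PU.1, had log2 changes of -2.73 (adjusted P = 5.42e-05) and -2.23 (adjusted P = 0.00505) in HE2 and progenitors. Gfi1, a repressor needed for granulopoiesis, rose by 3.22 in myeloid progenitors (SE 0.408, adjusted P = 2.36e-05). In HE, 0 of the 7 passed in limma, where 4.7% of all genes rose and 2.39% fell. At P under 0.05, 1 was higher and 2 were lower there, where 14.4% and 12.4% of all genes were. Several of these factors were chosen with their values known.

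Of 8 other primary granule genes tested among 10 listed, 1 rose with Dox in HE, 1 fell in HE2, 0 passed in progenitors and 1 rose in myeloid progenitors. Of all genes tested, 4.7% rose in HE, 2.05% fell in HE2 and 5.13% rose in myeloid progenitors. At an unadjusted P under 0.05 in limma, 2 were higher with Dox in HE and 0 lower, 2 higher and 4 lower in HE2, 0 higher and 3 lower in progenitors, and 1 higher and 3 lower in myeloid progenitors, to be read against the shares of all genes at that P given above. Cst7, which encodes the protease inhibitor cystatin F, fell by 1.79 with Dox in HE2 (SE 0.307, adjusted P = 0.000499 from limma), from 9.95 to 8.16 by the means. Serpinb1a, which encodes an inhibitor of elastase, proteinase 3 and cathepsin G, went the other way, with 6.58 to 7.79 in uninduced and 10.19 to 10.69 in induced HE, and 11.09 to 11.32 in uninduced and 14.85 to 15.38 in induced myeloid progenitors. It rose by 3.20 (SE 0.267, adjusted P = 2.77e-07) and by 3.86 (SE 0.267, adjusted P = 4.25e-08), whereas in progenitors it differed by -0.13 (adjusted P = 0.873). Its response differed between progenitors and myeloid progenitors by 3.99 (SE 0.422, adjusted P = 0.000178 from limma). The 8 genes had a median log2 change of 0.04, -0.56, -0.43 and -0.37 from HE to myeloid progenitors.

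Of 9 tested among 14 genes of secondary and tertiary granules, 1 fell and 1 rose with Dox in HE2, where 2.05% and 5.17% of all genes did. In progenitors 1 fell, where 0.704% did, and none passed in HE or in myeloid progenitors. At P under 0.05 in limma, 2 were higher in HE, where 14.4% of all genes were. In HE2 1 was higher and 1 lower at that P, where 16.2% and 13.2% of all genes were. In progenitors 0 were higher and 3 lower, where 10.4% and 9.77% of all genes were. In myeloid progenitors 1 was higher and 1 lower at that P, where 15.1% and 10.4% of all genes were. Hp, which encodes haptoglobin, had 9.82 to 10.45 in uninduced HE2 and 6.65 to 8.19 in induced HE2, a change of -2.44 (SE 0.528, adjusted P = 0.00326). Pglyrp1, which encodes a peptidoglycan recognition protein, had 7.83 and 8.33 in uninduced and 6.33 and 6.42 in induced progenitors and fell by 1.71 (SE 0.266, adjusted P = 0.000592). Mmp25, which encodes leukolysin, was higher by 1.18 in induced HE2 (SE 0.214, adjusted P = 0.000817 from limma). It was tested only because induced HE2 reached the filter of 6.5, with at most 6.54, so its call there is no independent support. In uninduced HE2 its mean was 5.10, with 1 of 3 spots well above background. Among the 6 subunits of the phagocyte NADPH oxidase, Ncf1 (p47phox) fell with Dox in HE2 (-1.97), progenitors (-1.94) and myeloid progenitors (-2.16). Ncf4 (p40phox) rose by 1.89 in HE and 1.68 in HE2, and Cyba (p22phox) fell by 1.27 in HE.

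Of other neutrophil genes, Cxcr2, which encodes a chemokine receptor, fell with Dox in HE2 (-1.55) and myeloid progenitors (-1.45). Slpi, which encodes a secreted inhibitor of elastase, rose by 1.82 in HE2 (SE 0.277, adjusted P = 0.000183 from limma). Both were named among the largest changes of a list of neutrophil genes whose counts are not given.

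**Figure D5:**
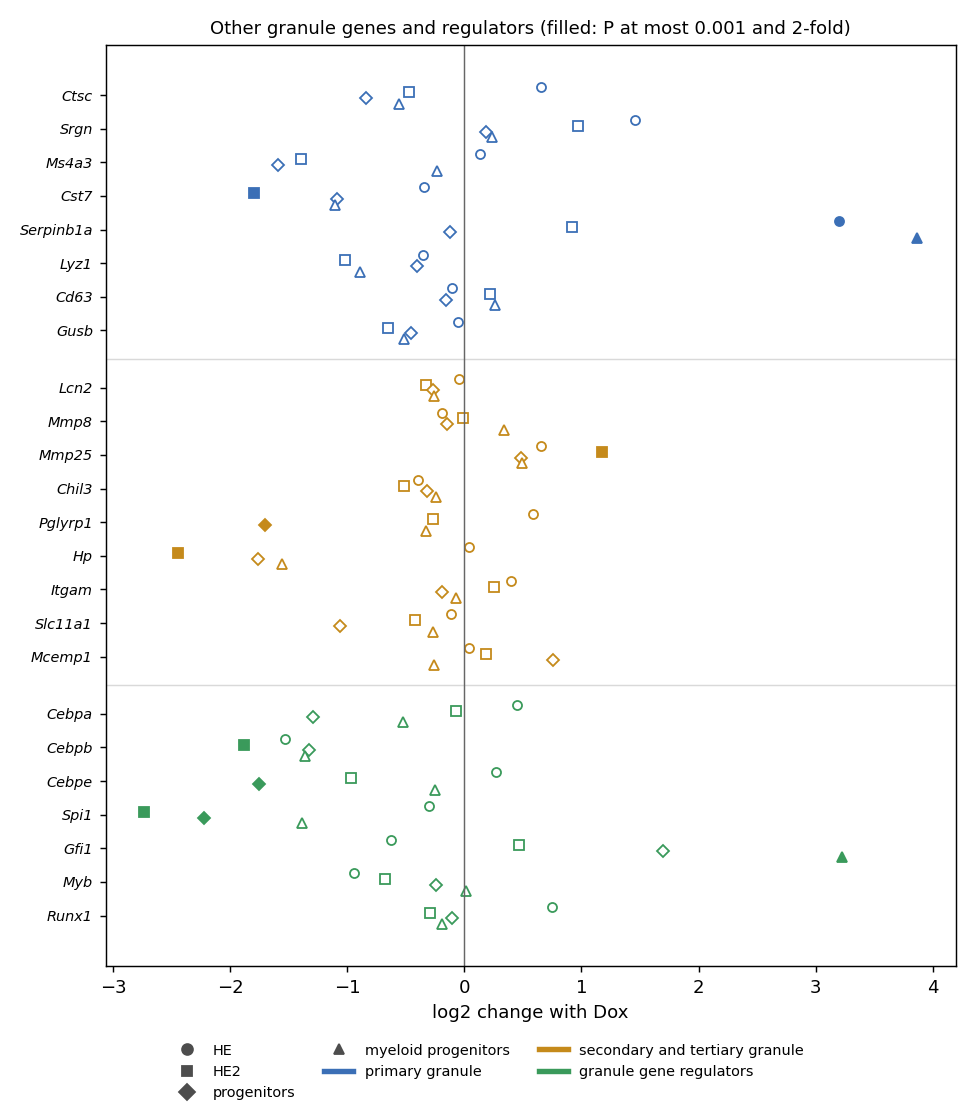
Log2 change with Dox of other primary granule genes, secondary and tertiary granule genes and regulators of granule genes, with 1 symbol per stage and filled symbols where P was at most 0.001 and the change at least 2-fold. Serpinb1a is filled to the right at 3.20 in HE and 3.86 in myeloid progenitors, whereas Cst7, Hp, Pglyrp1, Cebpe and Spi1 are filled to the left.

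As a description over the 22 arrays of the fit, which share stages and Dox, Pearson's r between pairs of Mpo, Prtn3, Lyz2 and Ltf was 0.682 to 0.895, the highest being for Mpo with Ltf. Elane had r between -0.395 and 0.132 with these 4 genes. Outside the list, the genes with the pattern most like that of Mpo were B9d2 (r = 0.968), F13a1 (0.964) and Plcg2 (0.958). For Prtn3 they were C130050O18Rik (0.932), Spns3 (0.916) and Plppr3 (0.912), the last of which is its neighbour in gene order. For Lyz2 they were Ubash3a (0.975), Fcgr3 (0.963) and Otulinl (0.959), and for Ltf they were Alox5ap (0.929), C130050O18Rik (0.926) and Abhd15 (0.920). For Elane, Ctsg and Camp the highest r was 0.936, 0.767 and 0.917, with Rdh12, 4930567H12Rik and Smok3b.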

How the data were processed

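RNA of 23 samples was hybridised in 1 colour to Agilent mouse arrays. The authors deposited unnormalized spot intensity values read by Feature Extraction 10.7.3.1, per the file headers (10.7.1.1 in the submitters' processing notes), with local background and flags, and also deposited log2 values corrected and quantile normalized by the authors, used here as an alternative. From the median spot intensity, background was corrected with normexp (offset 16), 3671 control spots and spots marked as outliers were left out, arrays were quantile normalized together, and 55681 probes resulted. Of these, 26582 matched a symbol by accession in a RefSeq table (GRCm38.p6), used for names, order of genes and promoters. Group means were fitted by limma 3.58.1 to 22 arrays in R 4.3.3 (package data.table, version 1.17.8), with 14 residual degrees of freedom, and changes needed P of at most 0.001 and 2-fold. Adjusted P values (Benjamini-Hochberg) cover all 15202 genes. Members and lists, including markers of other cells, were chosen with earlier results of these data known. All members are described. Of a list, at most 4 genes are named, those with the largest change past the threshold. Of the list of other neutrophil genes, 1 gene and the counts are not reported here. For likeness, the 3 genes with the highest r are given. Tested on simulated data, the fit recovered most of the known changes put in at each stage. Alternatives, 1 of them added after the data were seen (outlier spots kept), are in the closing section.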

Additional observations from a re-analysis of the deposited data

How the results depend on the processing

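None of the 13 changes of members that passed turned its sign under the alternatives, whereas 31 of the 78 that did not pass did so under at least 1 of them. Without uninduced progenitor array 2, Ltf changed sign with Dox in progenitors (0.13) and from uninduced progenitors to myeloid progenitors (0.20). Counts below are of members past the threshold, given where they moved by over 1.5 times. Prtn3 with Dox in progenitors and Mpo from HE to HE2 in both arms passed in every setting. With an offset of 50, 2 members passed with Dox in progenitors, the second being Camp through its other probe. From uninduced progenitors to myeloid progenitors 1 passed with 75th percentile scaling, with the deposited log2 values and with outlier spots kept, and 0 with the slide or the scan date as a block. With early stages and myeloid progenitors normalized apart, 1 passed with Dox in HE2 and 2 in myeloid progenitors. At an adjusted P of 0.05, 1 passed with Dox in HE, 2 in myeloid progenitors, 3 from induced HE2 to progenitors and 2 from induced progenitors to myeloid progenitors. At 2-fold alone these counts were 1, 2, 3 and 2, with 2 for Dox in progenitors, 4 from uninduced progenitors to myeloid progenitors, 2 from induced HE to HE2, and 2, 4 and 1 for the differences in response.

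With the slide as a block, Prtn3 also passed from uninduced HE to HE2, 1 passed with Dox in HE2, 1 in myeloid progenitors and 0 from induced progenitors to myeloid progenitors, and with the scan date as a block 1 passed with Dox in HE2. With the replicate number as a block, 1 passed with Dox in HE2, since Mpo was lost, and no other count changed. Between uninduced HE and HE2 arrays of the same number, deviations from the group means had correlations of 0.394, 0.795 and 0.608. From HE2 to progenitors the correlations were 0.381 and 0.200 without Dox and 0.163 and 0.118 with Dox. Between uninduced and induced progenitors they were 0.230 and 0.230. In every other comparison at least 1 number had a negative correlation. In a fit of the compared groups only, 0 passed with Dox in HE2, 2 in myeloid progenitors, 1 at each uninduced step and 2 from induced progenitors to myeloid progenitors. Leaving out 1 array gave 0 to 2 for Dox in HE2, 2 to 3, 1 to 2 and 0 to 2 for the uninduced steps, 1 to 2 from induced HE2 to progenitors, 0 to 1 from induced progenitors to myeloid progenitors, and 0 to 1 for the difference in response between HE2 and progenitors. The cause of these shifts was not tested. Groups of 2 or 3 arrays and dim probes, such as Ctsg, limit what could be detected.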
